A study of Homo sapiens with 12 samples.

Results

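The SOX genes other than SOX2 were followed in ARPE-19, an established cell line from the human retinal pigment epithelium (RPE), in 4 groups. The genes were the 9 lines of the count table named SOX4, SOX5, SOX6, SOX8, SOX9, SOX11, SOX12, SOX13 and SOX15, out of 40591 named lines. Each group held 3 poly(A) RNA libraries. WT names ARPE-19 cells for which the labels give no open reading frame (ORF). GFP, GSTA4 and OSK are stable lines collected after 4 days of expression of a fluorescent protein, of glutathione S-transferase alpha 4, or of the set read here as OCT4 (POU5F1), SOX2 and KLF4. The labels do not give the promoter that drove the ORFs, nor do they tie the 3 replicates of a group to separate cultures or to more than 1 line. The p-values therefore measure the spread between these libraries, which may be technical, and the ORF and the line that carries it cannot be told apart.

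SOX proteins are transcription factors that bind DNA through an HMG box, a domain that fits the minor groove and bends the helix. The family is sorted by the sequence of that box. SOX4, SOX11 and SOX12 form group C and are known from neural and epithelial progenitors. SOX8 and SOX9 belong to group E with SOX10, and SOX9 takes part with MITF and OTX2 in switching on genes of the RPE. SOX5, SOX6 and SOX13 form group D, which lack a transactivation domain of their own and act beside other factors, as SOX5 and SOX6 do with SOX9 in cartilage. SOX15 is the lone member of group G and is close to SOX2 in its box. SOX2 itself is a reprogramming factor that binds DNA together with OCT4.

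The kinship of the family can be seen in the stretch of coding sequence in which the members were most alike to SOX2, which lies in the HMG box. It is shown because the OSK libraries hold many SOX2 reads and because a read from such a stretch could come from several members. The window is 90 bases long, and sequences are from the GENCODE v29 transcripts, 5′ to 3′, with capitals at bases that differ from SOX2.
SOX2: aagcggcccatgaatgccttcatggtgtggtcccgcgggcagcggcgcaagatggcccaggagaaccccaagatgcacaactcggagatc
SOX15: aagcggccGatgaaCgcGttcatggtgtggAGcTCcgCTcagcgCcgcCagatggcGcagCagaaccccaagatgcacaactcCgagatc
SOX4: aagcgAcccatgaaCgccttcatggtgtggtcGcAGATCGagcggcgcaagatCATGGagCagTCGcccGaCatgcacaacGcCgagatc
SOX8: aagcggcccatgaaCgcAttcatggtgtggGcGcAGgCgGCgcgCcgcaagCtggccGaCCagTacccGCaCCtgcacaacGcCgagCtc
SOX9: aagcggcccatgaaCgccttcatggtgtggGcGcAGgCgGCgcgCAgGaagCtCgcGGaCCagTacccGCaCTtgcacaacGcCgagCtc
SOX12: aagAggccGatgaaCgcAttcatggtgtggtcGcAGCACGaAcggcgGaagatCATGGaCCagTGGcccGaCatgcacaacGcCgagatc
SOX5: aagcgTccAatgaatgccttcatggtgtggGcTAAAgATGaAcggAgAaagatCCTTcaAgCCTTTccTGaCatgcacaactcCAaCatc
SOX15 matched SOX2 at 84.4% of these bases, the highest share of the 9 members. SOX4 and SOX8 matched at 75.6%, SOX9 at 72.2%, SOX12 and SOX13 at 70.0%, SOX5 and SOX11 at 67.8%, and SOX6 at 65.6%. Over whole transcripts the longest run of identical bases that a member shared with SOX2 was 22 bases, in SOX15, followed by 21 in SOX5. Runs between members were longer, at 37 bases between SOX8 and SOX9, 35 between SOX11 and SOX12, and 33 between SOX4 and SOX12. The read length is not given in the sources used here.

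In GENCODE v29 on GRCh38, a build that the submitters' processing notes name beside a mouse build, the members lie at 9 separate loci. SOX4 is at chr6:21592768-21598619, SOX11 at chr2:5692667-5701385 and SOX12 at chr20:325595-330224. SOX8 is at chr16:981808-986979 and SOX9 at chr17:72121020-72126420. SOX5 is at chr12:23529500-24562544, SOX6 at chr11:15966449-16739591, SOX13 at chr1:204073115-204127743 and SOX15 at chr17:7588178-7590170. Exons of SOX4, SOX6 and SOX15 overlap an exon of a gene on the opposite strand, over 2.87%, 1.12% and 0.97% of their exonic length. The counting strand is not given in the sources used here, so reads in those stretches cannot be assigned.

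The 12 libraries held 12526826 to 16940870 reads on named genes. Levels are given as CPM, the reads of a gene scaled to the size of its library. A count of 0 allows up to 3 reads, or 0.177 to 0.228 CPM in this series, counting error only. GFP replicate 1 was the shallowest and yet detected the most named genes, 27349, where the other 11 libraries detected 19488 to 22073. WT replicate 1 differed from the other WT libraries by a chi-square per degree of freedom of 15 and 17.5, where the other pairs within groups ran from 2.54 to 6.98. Where leaving out either library changed the call of a member, or moved a called value by over 1.5 times, both values are given. As a check of the labels, SOX2 had 8890, 9836 and 8944 reads in the OSK libraries, 5, 0 and 1 in GFP, and 0 in all 6 WT and GSTA4 libraries. RPE transcription factors and pigment genes were present (MITF, OTX2, PMEL and TYRP1), while 4 of 17 RPE markers, RPE65, RGR, TTR and DCT, did not pass the low-count filter and reached 10 reads at most in any library. Of 11 pluripotency markers only DNMT3B passed the filter, and NANOG reached 6 reads at most.

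Of the 9 members, 8 passed the filter on low counts and SOX11 did not. Per kilobase of annotated exon, SOX4, SOX8 and SOX9 were the most abundant in every group. In GFP, SOX8 had 61.3 CPM per kb ± 6.18 (SD, n = 3), SOX4 52.3 ± 3.18 and SOX9 27.7 ± 1.14. SOX12 followed with 8.55 ± 0.591 and SOX13 with 2.37 ± 0.0499, and SOX15, SOX5 and SOX6 lay below 1 CPM per kb. The exon lengths are those of GENCODE v29 and pool all transcripts of a gene, which lowers the values of SOX5 and SOX6, the members with many transcripts.

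**Figure D1:**
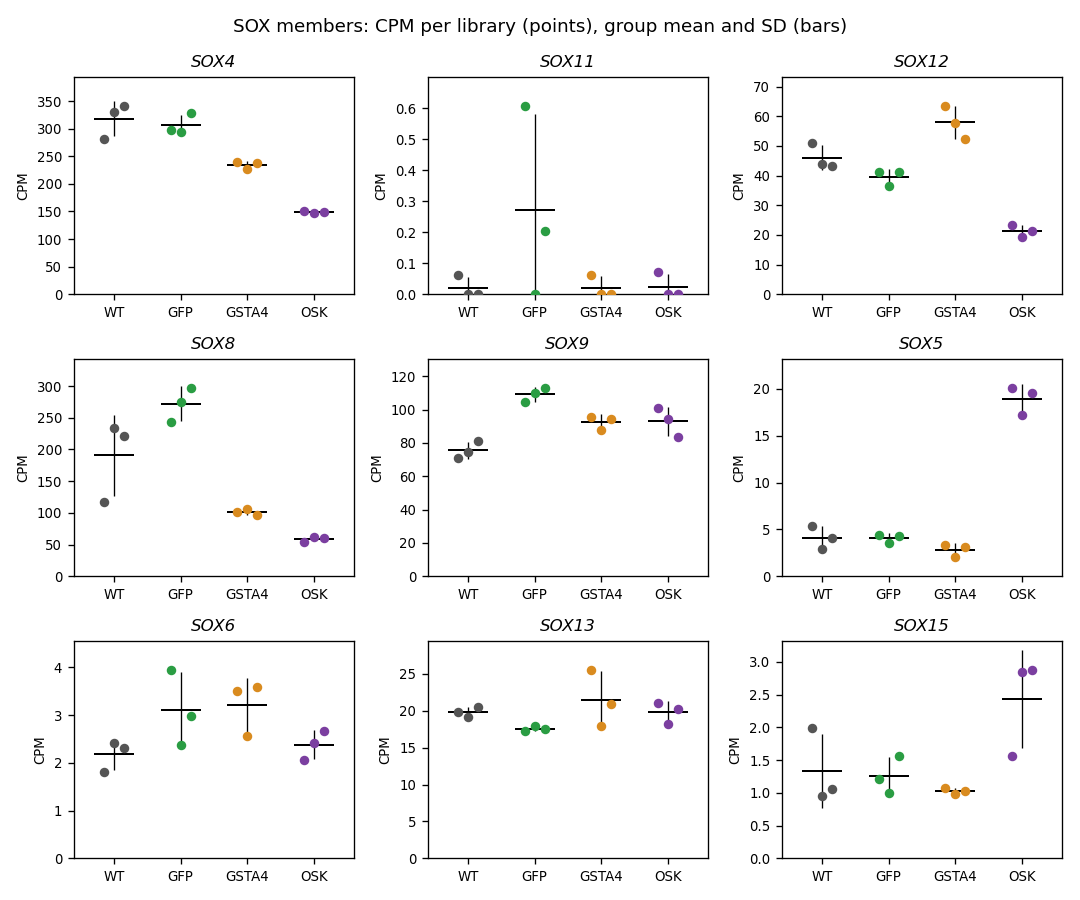
CPM after TMM scaling (y axis, linear from 0, its own range per panel) of the 9 SOX members in the WT, GFP, GSTA4 and OSK groups; each point is a library, horizontal bars are group means and vertical bars the SD of 3 libraries. SOX4 and SOX8 are lowest in OSK, SOX5 is highest there, and SOX11 stays below 1 CPM in all 12 libraries.

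The members were compared between OSK and GFP to see what differed with the reprogramming factors. SOX8, SOX4, SOX12 and SOX9 were lower in OSK, and SOX5 and SOX15 were higher, with adjusted p-values under 0.05 in edgeR's quasi-likelihood test. Of the 8 members tested, 6 passed, against 45.9% of the 15179 genes tested. The 4 lower members stand beside 22.8% of all genes, and the 2 higher beside 23.1%. A log2 fold change of at least 1 in size was reached by 3 members past the threshold, against 11.6% of all genes. OSK and GFP libraries did not overlap in 7 of 8 members, against 54.7% of all genes. The median log2 fold change of the 8 members was -0.30, and that of all genes -0.02. Since this is bulk RNA, fewer cells that express a gene and less of its RNA per cell cannot be told apart. The contrasts of OSK and of GSTA4 with GFP share the 3 GFP libraries, so their values are given side by side and not as independent results.

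**Figure D2:**
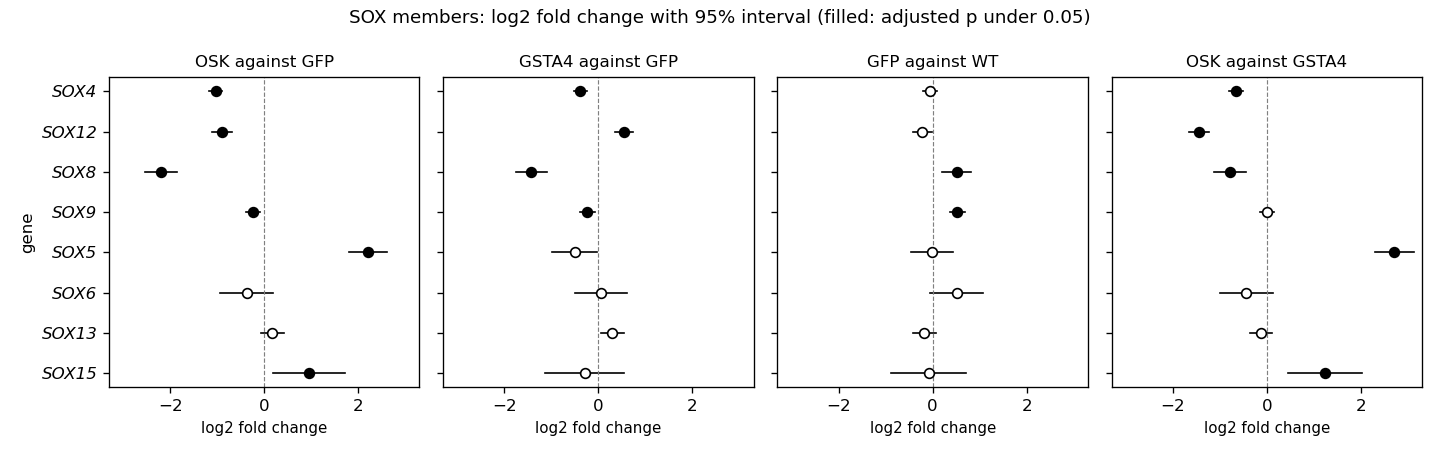
Log2 fold change (x axis) with its 95% interval for the 8 tested SOX members (y axis) in 4 contrasts, from edgeR; filled points have an adjusted p under 0.05. SOX8 lies at -2.20 and SOX5 at 2.21 in OSK against GFP, and SOX12 has opposite signs in the OSK and GSTA4 contrasts with GFP.

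In group C, SOX4, a factor that promotes survival and mesenchymal traits in many cell types, had 297, 293 and 327 CPM in the GFP libraries and 151, 148 and 149 in OSK. In GSTA4 the libraries had 239, 227 and 237 CPM, and in WT 282, 331 and 342. The OSK, GSTA4 and control libraries thus formed separate steps, while WT and GFP overlapped. SOX4 was 2.05-fold lower in OSK than in GFP (log2 -1.03, SE 0.0692, edgeR adjusted p 1.3e-10) and 1.31-fold lower in GSTA4 than in GFP (-0.38, SE 0.068, adjusted p 0.000208). It was also lower in OSK than in GSTA4 (-0.65, SE 0.0691, adjusted p 1.08e-07). Relative to WT it was lower in GSTA4 too (-0.44, SE 0.0679, adjusted p 3.1e-05). Between GFP and WT the log2 fold change was -0.05, with a 95% interval from -0.20 to 0.09.

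SOX12, the least studied member of group C, did not follow SOX4. Its libraries had 41.1, 36.4 and 41.2 CPM in GFP, 23.5, 19.2 and 21.2 in OSK, and 63.6, 57.9 and 52.2 in GSTA4. The 3 groups did not overlap, with OSK below GFP and GSTA4 above it. SOX12 was 1.86-fold lower in OSK than in GFP (log2 fold change -0.90, SE 0.1, edgeR adjusted p 2.82e-07) and 1.46-fold higher in GSTA4 than in GFP (0.55, SE 0.0933, adjusted p 0.000133). OSK was also lower than GSTA4 (log2 -1.44, SE 0.0981, adjusted p 1.16e-10). WT, at 50.8, 44.1 and 43.4 CPM, lay between GFP and GSTA4. GSTA4 exceeded WT by 0.33 (SE 0.0919, adjusted p 0.00729), a difference that had an adjusted p of 0.0537 without GSTA4 replicate 1. GFP against WT did not pass the threshold (log2 fold change -0.22, SE 0.094, adjusted p 0.1).

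SOX11, a factor of developing neurons, was the scarcest member. It had 8, 0 and 3 reads in the GFP libraries, and 1, 0 and 0 reads in each of WT, GSTA4 and OSK. The 8 reads fell in GFP replicate 1, the library with reads on the most genes. SOX11 did not enter the fit reported. With no low-count filter 9 members were tested, and each contrast called as many members as with the 8.

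In group E, SOX8, a relative of SOX9 with roles in gonad, glia and neural crest, fell furthest in OSK. Its libraries had 243, 275 and 298 CPM in GFP, 54.4, 62.0 and 60.9 in OSK, and 101, 106 and 96.7 in GSTA4. In WT they had 118, 233 and 222 CPM. All OSK libraries lay below all GSTA4 libraries, and those below every WT and GFP library. SOX8 was 4.60-fold lower in OSK than in GFP (log2 fold change -2.20, SE 0.163, edgeR adjusted p 6.06e-10) and 2.69-fold lower in GSTA4 than in GFP (-1.42, SE 0.156, adjusted p 5.63e-07). OSK was below GSTA4 as well (-0.78, SE 0.163, adjusted p 0.00048). Against WT, SOX8 was lower in OSK (-1.69, SE 0.161, adjusted p 2.58e-08) and in GSTA4 (-0.91, SE 0.156, adjusted p 9.06e-05).

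SOX8 was higher in GFP than in WT (log2 fold change 0.51, SE 0.151, adjusted p 0.0197), and here single libraries mattered. WT replicate 1, at 118 CPM, stood apart from the other WT libraries, and without it the value was 0.25 (adjusted p 0.0142). Without GFP replicate 2 or 3 the adjusted p was 0.0599 and 0.0782, with only the WT and GFP libraries in the fit it was 0.0722, and with DESeq2 it was 0.0941.

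SOX9, the RPE and cartilage regulator of group E, moved far less than SOX8. The WT libraries had 71.0, 74.8 and 81.2 CPM, and the GFP libraries 104, 110 and 113. The GSTA4 libraries had 95.8, 87.6 and 94.5 CPM, and the OSK libraries 101, 94.5 and 83.4. WT lay below the other 9 libraries, and GFP above them. SOX9 was 1.44-fold higher in GFP than in WT (log2 fold change 0.53, SE 0.0731, edgeR adjusted p 3.77e-05). Relative to GFP it was lower in OSK (-0.23, SE 0.0726, adjusted p 0.0128) and in GSTA4 (-0.23, SE 0.0726, adjusted p 0.019). Relative to WT it was higher in OSK (0.29, SE 0.0733, adjusted p 0.00241) and in GSTA4 (0.29, SE 0.0734, adjusted p 0.00346). The direction of SOX9 in OSK and GSTA4 thus depended on the control group. OSK and GSTA4 overlapped, with a log2 fold change of 0.00304 and a 95% interval from -0.15 to 0.16. The OSK call against GFP was lost without GFP replicate 3 (adjusted p 0.055) or OSK replicate 3 (0.106), and the GSTA4 call without GFP replicate 3 (0.0571) or GSTA4 replicate 2 (0.108).

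In group D, SOX5 rose in OSK while SOX6 and SOX13 did not pass the threshold. SOX5, a cofactor of SOX9 in cartilage and a factor of cortical neurons, had 20.1, 17.2 and 19.6 CPM in the OSK libraries, from 283, 271 and 278 reads. It had 4.41, 3.51 and 4.35 CPM in GFP, 5.35, 2.94 and 4.07 in WT, and 3.3, 2.10 and 3.16 in GSTA4. Every OSK library was above every other library. SOX5 was 4.62-fold higher in OSK than in GFP (log2 fold change 2.21, SE 0.192, edgeR adjusted p 7.22e-09), 6.56-fold higher than in GSTA4 (2.71, SE 0.2, adjusted p 4.26e-10) and 4.55-fold higher than in WT (2.19, SE 0.189, adjusted p 5.71e-09). The log2 fold change in GSTA4 against GFP was -0.51 (SE 0.228, adjusted p 0.105). GFP differed from WT by -0.02 (SE 0.215, adjusted p 0.957). GSTA4 against WT gave -0.53 (SE 0.225, adjusted p 0.07), and this too turned on single libraries. It was -0.71 without WT replicate 2 (adjusted p 0.0171), -0.30 without WT replicate 1 (0.353) and -0.36 without GSTA4 replicate 2 (0.271).

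SOX6, which pairs with SOX5, ran from 1.80 CPM in WT replicate 1 to 3.95 CPM in GFP replicate 1. Its F test over the 4 groups gave an adjusted p of 0.163, and the 95% interval of OSK against GFP ran from -0.94 to 0.19. SOX13, known from T cells and from arteries, ran from 17.3 CPM in GFP replicate 1 to 25.6 CPM in GSTA4 replicate 1, with an F test adjusted p of 0.149. The 3 GFP libraries lay below all other libraries in SOX13, by a small margin. The largest of its contrasts was GSTA4 against GFP (log2 fold change 0.30, SE 0.115, adjusted p 0.0589). Single libraries moved it both ways. Without GSTA4 replicate 1, the library with the most SOX13, its value was 0.15 (adjusted p 0.361), and without GSTA4 replicate 2 it was 0.41 (adjusted p 0.0133). Without WT replicate 1 the adjusted p was 0.0435.

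SOX15, the group G member that is active in muscle precursors and placenta, was scarce, with 22, 45 and 41 reads in OSK and 16, 14 and 23 in GFP. In CPM these were 1.57, 2.85 and 2.88 in OSK against 1.22, 1.00 and 1.56 in GFP, while GSTA4 had 1.08, 0.976 and 1.03 and WT 1.99, 0.955 and 1.06. The lowest OSK library lay just above the highest GFP library and below WT replicate 1. SOX15 was 1.92-fold higher in OSK than in GFP (log2 fold change 0.94, SE 0.367, edgeR adjusted p 0.0413) and 2.35-fold higher than in GSTA4 (1.24, SE 0.375, adjusted p 0.00976). Against WT the adjusted p was 0.0587 (log2 fold change 0.86, SE 0.36), and without WT replicate 1, the WT library with the most SOX15, the value was 1.26 (adjusted p 0.0154). The call against GFP was lost without GFP replicate 1 (adjusted p 0.0839), GFP replicate 2 (0.129), OSK replicate 2 (0.137) or OSK replicate 3 (0.134), and with scaling by library size alone (0.0608). The 3 OSK libraries held 27670 SOX2 reads and 108 SOX15 reads, and SOX15 is the member whose box is closest to SOX2. The part of SOX2 reads in the SOX15 count was not tested.

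Set together, the members ranked differently in the 4 groups. SOX8 made up 39.9% ± 1.73 (SD, n = 3) of the summed CPM per kb of the 9 members in GFP and 32.3% ± 6.82 in WT, against 22.2% ± 1.30 in GSTA4 and 18.2% ± 1.54 in OSK. SOX9 made up 18.1% ± 0.513 in GFP and 32.2% ± 2.35 in OSK, although its own level was slightly lower in OSK. SOX4 kept between 34.1% in GFP and 41.8% in WT. SOX12 had its highest share in GSTA4, at 12.1% ± 0.934. SOX5 made up 0.2555% ± 0.0348 in GFP and 2.48% ± 0.210 in OSK. The order from the top was SOX8, SOX4, SOX9 in GFP and SOX4, SOX9, SOX8 in OSK and in GSTA4. SOX9 and SOX8 in GSTA4, and SOX4 and SOX9 in OSK, differed by less than the sum of their SDs. These shares are descriptions and were not tested.

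**Figure D3:**
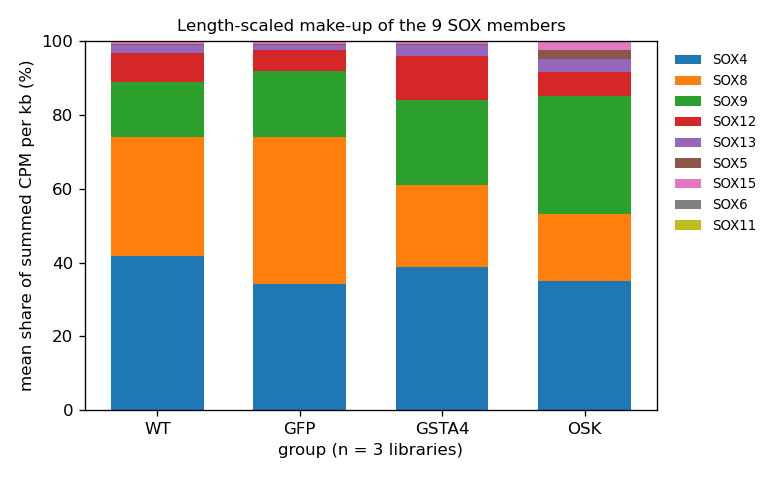
Mean share (y axis, percent) of each SOX member in the summed CPM per kb of exon of the 9 members, by group (x axis, 3 libraries each). The SOX8 segment takes 39.9% in GFP and 18.2% in OSK, and the SOX9 segment 18.1% and 32.2%.

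Between GSTA4 and GFP, 4 of 8 members passed the threshold, against 29.2% of all genes tested. SOX8, SOX4 and SOX9 were lower, against 14.6% of all genes, and SOX12 was higher, against 14.7%. SOX8 alone reached a log2 fold change of 1 in size, against 5.7% of all genes, and the libraries did not overlap in 6 members, against 42.3%. The median size of the log2 fold change was 0.34 in the members and 0.22 in all genes, where it was 0.92 and 0.31 in OSK against GFP.

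Between GFP and WT, 2 members passed (SOX8 and SOX9, both higher), against 22.2% of all genes, of which 11% were higher and 11.2% lower. The count of lower members by edgeR was 0, with SOX12 alone at an unadjusted p under 0.05 (0.0296). No member reached a log2 fold change of 1 past the threshold, against 3.31% of all genes, and the libraries did not overlap in 4 members, against 34.6%. The median size of the log2 fold change was 0.20 in both the members and all genes.

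OSK against GSTA4 passed in 5 members, against 47.8% of all genes, with SOX12, SOX8 and SOX4 lower, against 23.8%, and SOX5 and SOX15 higher, against 24.1%. A log2 fold change of 1 was reached by 3 of them, against 13.1%, and the libraries did not overlap in 5 members, against 58%. GSTA4 against WT passed in 4 members, against 38.6%, with SOX8 and SOX4 lower, against 19%, and SOX12 and SOX9 higher, against 19.7%. None of these reached a log2 fold change of 1, against 7.82%, and the libraries did not overlap in 5 members, against 49%. OSK against WT passed in 5 members, against 45.4%, with SOX8, SOX12 and SOX4 lower and SOX5 and SOX9 higher, against 22.7% in each direction. A log2 fold change of 1 was reached by 4 of them, against 12.2%, and the libraries did not overlap in 5 members, against 53.5%. Over the 4 groups together the F test passed in 6 of 8 members, against 66.9% of all genes, a share near that of the background.

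Of 10 further coding SOX symbols in the table, SOX2 and SOX10 passed the filter, and the other 8 had 8 reads at most in any library. SOX10, the neural crest member of group E, had 17, 13 and 5 reads in GFP and 4, 15 and 1 in OSK, with an F test adjusted p of 0.454. Among noncoding genes at SOX loci, SOX9-AS1 had 22, 5 and 14 reads in GFP and 2, 5 and 5 in OSK. It was lower in OSK than in GFP (-1.83, SE 0.598, edgeR adjusted p 0.0165). The 22 reads fell in GFP replicate 1, which detected the most genes, and its part in this result was not tested. In WT it had 9, 3 and 6 reads, and OSK against WT did not pass (-0.48, SE 0.669, adjusted p 0.591). CASC15, a long noncoding RNA next to SOX4, had 48.6 CPM ± 2.08 in GFP, 29.3 ± 3.21 in GSTA4 and 23.2 ± 2.59 in OSK (n = 3 each). It was lower in OSK (-1.07, SE 0.124, adjusted p 5.14e-07) and in GSTA4 (-0.73, SE 0.122, adjusted p 0.000111) than in GFP. In WT it had 36.2 CPM ± 7.43. Unlike SOX4 it passed the threshold in GFP against WT (0.43, SE 0.12, adjusted p 0.0145) and not in GSTA4 against WT (-0.31, SE 0.123, adjusted p 0.0551). SOX2-OT, which overlaps the SOX2 locus, had at most 2 reads in each OSK library.

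The set of RefSeq promoter sequences used here (GRCh38.p14) held 5 of the 9 members, and SOX8, SOX9, SOX11 and SOX15 were not in it. The 250 bases before the start were searched on both strands for ACAATG, a form of the SOX site, for the octamer ATGCAAAT bound by POU factors, and for CCACCC, a core bound by KLF factors. ACAATG holds the shorter SOX core ACAAT within it, which 24.6% of promoters contain. In SOX5, the member that rose most in OSK, ACAATG occurred in its reverse form CATTGT at 180 and 138 bases before the start, and 9.29% of 35116 promoters held it at least once. Of the 250 bases of this window, 159 lie in annotated exon or in the span of the gene, and the match at 138 is among them. The stretch at chr12:24562651-24562741 on the minus strand, which lies outside the annotated gene, holds the match at 180, in capitals.
SOX5: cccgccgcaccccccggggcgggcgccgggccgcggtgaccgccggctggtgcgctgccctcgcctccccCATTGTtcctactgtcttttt
In SOX12, lower in OSK and higher in GSTA4, the octamer occurred once, 188 bases before the start, where 1.63% of promoters hold it. CCACCC occurred once in its reverse form, and 31.3% of promoters hold it. Both are in capitals in the 250 bases at chr20:325302-325551 on the plus strand.
SOX12: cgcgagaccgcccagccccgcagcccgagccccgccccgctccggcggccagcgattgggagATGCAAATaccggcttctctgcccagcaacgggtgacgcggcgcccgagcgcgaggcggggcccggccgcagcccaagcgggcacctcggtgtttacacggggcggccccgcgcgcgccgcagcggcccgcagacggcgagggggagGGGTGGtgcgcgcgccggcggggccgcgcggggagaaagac
In SOX6 and SOX13, which did not pass the threshold in OSK against GFP, motifs occurred too. ACAATG was in 2 of the 5 SOX6 windows, at 116 and 114 bases before their starts, and CCACCC occurred 3 times in the SOX13 window. The shorter core ACAAT occurred 1 or 2 times in each SOX6 window, and 2 times in the SOX5 window. All 250 bases of each SOX6 window lie in annotated exon or in the span of the gene. In SOX4 none of the 3 motifs occurred, but all 250 bases of its window lie in annotated exon, downstream of the GENCODE v29 start. These matches describe the letters only, and binding was not measured.

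Most RPE genes that are linked to SOX9 were lower in OSK and in GSTA4 than in GFP. Of the 9 genes listed, 7 were tested. In OSK against GFP, 6 were lower and 0 higher, where 22.8% of all genes were lower. PAX6 was the seventh. Their median log2 fold change was -0.78. In GSTA4 against GFP, 5 were lower and 1 higher, where 14.6% of all genes were lower, with a median of -0.56. In GFP against WT, 4 were higher and 1 lower, where 11% of all genes were higher, with a median of 0.27. SOX9 itself was higher in GFP than in WT and lower in OSK and GSTA4 than in GFP. Against WT the list and SOX9 did not run together. In OSK against WT, 0 of the 7 were higher and 3 lower, against 22.7% of all genes in each direction (median -0.22). In GSTA4 against WT 2 were higher and 2 lower, against 19.7% and 19% of all genes (median -0.15). SOX9 was higher than in WT in both. The list was chosen with these results known, and its counts are a description.

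Among the genes with the lowest F test p-values in that list, MITF, the master regulator of pigment cells, had 249.8 CPM ± 5.82 (SD, n = 3) in GFP, 186 ± 14.5 in GSTA4 and 146 ± 5.56 in OSK. OSK over GFP gave -0.78 on the log2 scale (SE 0.0684, edgeR adjusted p 9.09e-09), and GSTA4 over GFP -0.42 (SE 0.0678, adjusted p 6.98e-05). WT had 207 CPM ± 17.2 of MITF. Against WT, OSK was lower (-0.51, SE 0.0683, adjusted p 3.47e-06) and GSTA4 did not pass (-0.15, SE 0.0678, adjusted p 0.0795). LHX2, an eye field factor, had 104 CPM ± 4.59 in GFP, 70.0 ± 6.80 in GSTA4 and 63.4 ± 2.24 in OSK. WT had 123 CPM ± 3.23, and LHX2 was lower in GFP than in WT too (-0.24, SE 0.0674, adjusted p 0.0155). LRAT, the enzyme that esterifies retinol, was the gene that was higher in GSTA4, with 3.89 CPM ± 1.11 in GFP, 1.40 ± 0.372 in OSK and 14.3 ± 1.602 in GSTA4. It rose by 1.87 in GSTA4 against GFP (SE 0.216, adjusted p 1.15e-06). WT had 1.05 CPM ± 0.311 of LRAT, and OSK against WT did not pass (0.39, SE 0.326, adjusted p 0.349). In the wider RPE marker list 12 of 13 tested genes were lower in OSK than in GFP and 1 was higher, against 22.8% and 23.1% of all genes. In OSK against WT, 6 were lower and 3 higher, against 22.7% of all genes in each direction. In GFP against WT, 8 were higher and 2 lower, against 11% and 11.2% of all genes. The count in OSK thus depended on the control group. The summed level of this marker list ran from 3021 to 3449 CPM in GFP and 2374 to 2394 in GSTA4. It ran from 2504 to 2568 in OSK and 3251 to 3427 in WT. PMEL, a melanosome protein, fell by 1.69 on the log2 scale between GFP and OSK (SE 0.132, adjusted p 1.54e-09). KRT8, an epithelial keratin, fell by 0.75 (SE 0.0868, adjusted p 4.76e-07).

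Markers of other cell types were read in the same way. Of 8 melanocyte and neural crest markers, 4 were tested, and 2 were higher in OSK than in GFP, against 23.1% of all genes. These were ERBB3 (3.28, SE 0.518, edgeR adjusted p 2.67e-05) and TFAP2A (0.39, SE 0.153, adjusted p 0.0408). SOX10, which was lower (-0.91, SE 0.672, adjusted p 0.287), and MLANA (0.43, SE 0.47, adjusted p 0.478) did not pass. In OSK against WT 1 of the 4 was higher, against 22.7% of all genes, and TFAP2A did not pass (0.31, SE 0.15, adjusted p 0.106). The summed level of the 8 ran from 8.97 to 12.5 CPM in GFP and from 16.6 to 20.9 in OSK, while FOXD3 had 2 reads at most in any library. Of 9 fibroblast markers, 3 were tested, and COL1A1 (-1.98, SE 0.165, adjusted p 3.87e-09) and PDGFRB (-0.95, SE 0.0662, adjusted p 2.74e-10) were lower in OSK than in GFP, against 22.8% of all genes. TWIST1 did not pass (0.21, SE 0.129, adjusted p 0.205). In GSTA4 against GFP, COL1A1 fell further (-4.19, SE 0.204, adjusted p 2.97e-12) and PDGFRB less (-0.29, SE 0.0655, adjusted p 0.00201). TWIST1 was higher there (0.63, SE 0.126, adjusted p 0.000712). The summed level of the 9 ran from 723 to 792 CPM in GFP and from 356 to 412 in OSK. PDGFRB made up most of it, at 660 CPM in GFP and 343 in OSK. LUM was at 0 reads and DCN at 2 at most. Of the pluripotency markers DNMT3B did not pass in OSK against GFP (-0.15, SE 0.274, adjusted p 0.685). Against WT it was higher in OSK (0.98, SE 0.297, adjusted p 0.0099), in GSTA4 (0.99, SE 0.297, adjusted p 0.0119) and in GFP (1.13, SE 0.295, adjusted p 0.00917). The part of these other cell types in the levels of the SOX members was not tested.

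**Figure D4:**
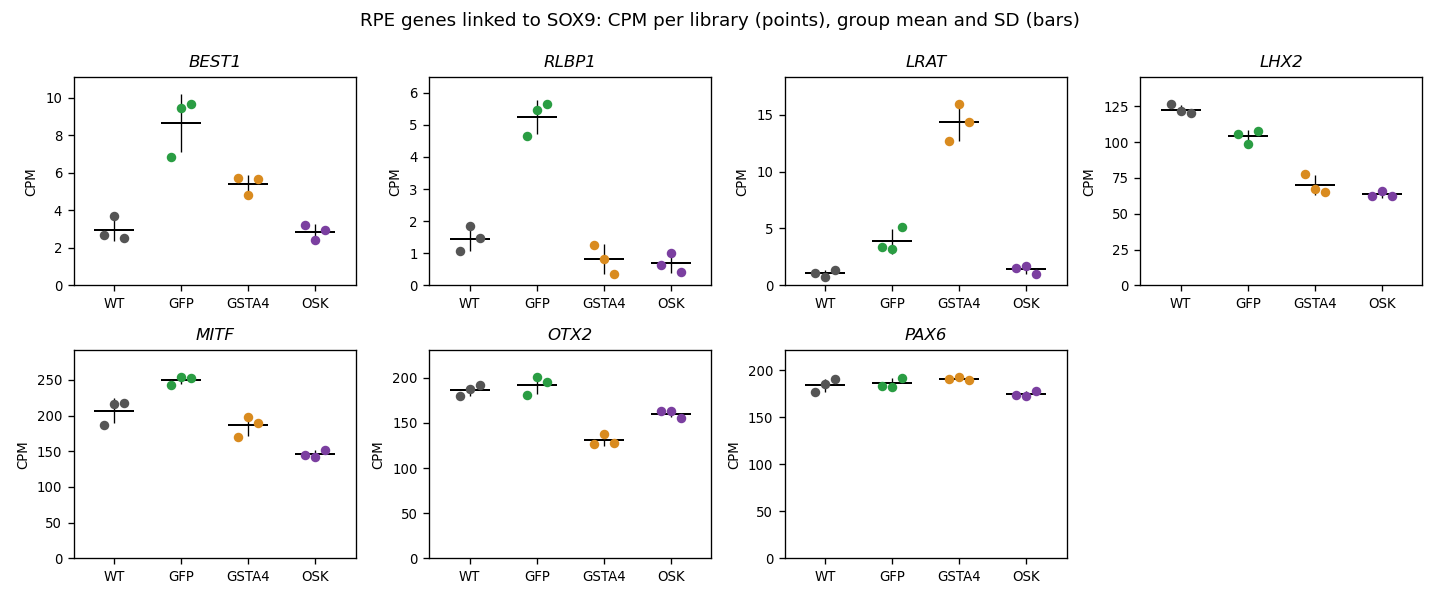
CPM (y axis, linear from 0, its own range per panel) of the 7 tested RPE genes linked to SOX9, by group; each point is a library, horizontal bars are means and vertical bars the SD of 3 libraries. MITF stands at 249.8 CPM in GFP and at 146 in OSK, and LRAT stands at 14.3 in GSTA4.

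The cartilage genes that SOX9, SOX5 and SOX6 drive together were mostly below the low-count filter. Of 14 listed, 5 passed it, and COL2A1 and ACAN, the defining pair, reached 10 and 9 reads at most in any library. In OSK against GFP, 0 of the 5 were higher, against 23.1% of all genes, and 2 were lower, against 22.8%. COL9A2, a chain of the fibril-bound collagen IX, had 88.3 CPM ± 14.3 in GFP, 33.4 ± 2.11 in OSK and 11.6 ± 0.953 in GSTA4. Its log2 fold change was -1.40 for OSK over GFP (SE 0.148, edgeR adjusted p 1.32e-07) and -2.93 for GSTA4 over GFP (SE 0.167, adjusted p 3e-11). COL11A1, a collagen XI chain, had 474 CPM ± 25.5 in GFP and 456 ± 19.4 in OSK (-0.06, SE 0.064, adjusted p 0.501). WT had more, at 710 CPM ± 49.1. COL11A1 was lower than in WT in OSK (-0.64, adjusted p 5.13e-08), GSTA4 (-0.71, adjusted p 2.48e-08) and GFP (-0.58, adjusted p 2.52e-06). MATN3, a cartilage matrilin under 1 CPM in every group, was the other gene that was lower in OSK than in GFP (-2.38, SE 0.63, adjusted p 0.00406). In OSK against WT, 0 of the 5 were higher and 3 lower, against 22.7% of all genes in each direction.

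Of 5 genes linked to SOX4 or SOX11, 4 were tested, and in OSK against GFP 2 were lower and 1 higher, where 22.8% and 23.1% of all genes were. TEAD2, a partner of YAP, had 22.4 CPM ± 4.03 in WT and 12.2 ± 1.00 in GFP, with less in GSTA4 (8.33 ± 2.04) and least in OSK (5.81 ± 0.528). It was lower in OSK (-1.07, SE 0.175, edgeR adjusted p 3.98e-05) and in GSTA4 (-0.55, SE 0.168, adjusted p 0.0185) than in GFP, as SOX4 was. Unlike SOX4, which gave -0.05 (adjusted p 0.609), TEAD2 was also lower in GFP than in WT (-0.87, SE 0.155, adjusted p 0.000454). PDGFA, a growth factor, was higher in OSK (0.86, SE 0.213, adjusted p 0.00253). EZH2, the polycomb methyltransferase, was at 19.1 CPM ± 1.95 in OSK and 18.2 ± 0.597 in GFP. WT had less, at 14.2 CPM ± 0.893, and OSK (0.42, SE 0.107, adjusted p 0.00286) and GFP (0.36, SE 0.108, adjusted p 0.0221) were higher than WT.

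SOX proteins share their box with the TCF/LEF factors of WNT signalling and pair with POU factors, and these lists were read beside the members. Of 7 TCF/LEF and other HMG relatives, all tested, 1 was higher and 2 were lower in OSK than in GFP, and 45.9% of all genes differed either way. TCF7L2 had 69.2 CPM ± 2.99 in GFP and 262 ± 3.59 in OSK, a rise of 1.92 on the log2 scale (SE 0.0714, edgeR adjusted p 1.1e-14). TCF7 and TCF7L1 were lower in OSK than in GFP, at -0.51 (SE 0.154, adjusted p 0.0102) and -0.66 (SE 0.171, adjusted p 0.00326). For TCF7 this depended on the control group. It was higher in GFP than in WT (0.83, SE 0.157, adjusted p 0.000809), and OSK against WT gave 0.32 (SE 0.16, adjusted p 0.114). TCF7L1 was lower in OSK than in WT too (-1.07, SE 0.165, adjusted p 1.92e-05). Of 13 POU factors, ORF POU5F1 left out, 3 were tested, and 2 were higher in OSK than in GFP, against 23.1% of all genes. POU2F1, the widely expressed OCT1, had 30.7 CPM ± 1.63 in GFP and 44.2 ± 0.335 in OSK (0.53, SE 0.083, adjusted p 2.55e-05). POU6F1 had 6.65 CPM ± 0.653 in GFP and 14.4 ± 0.627 in OSK (1.12, SE 0.155, adjusted p 5.01e-06). POU3F2, a neural factor, had 4.86 CPM ± 0.436 in GSTA4 and 2.60 ± 0.227 in OSK, and was lower in OSK than in GSTA4 (-0.90, SE 0.217, adjusted p 0.00174). OSK did not pass against GFP (-0.37, SE 0.225, adjusted p 0.195) or against WT (-0.03, SE 0.228, adjusted p 0.939). In the GSTA4 line POU3F2 was higher than in WT (0.87, SE 0.215, adjusted p 0.00296) and did not pass against GFP (0.53, SE 0.212, adjusted p 0.0652).

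**Figure D5:**
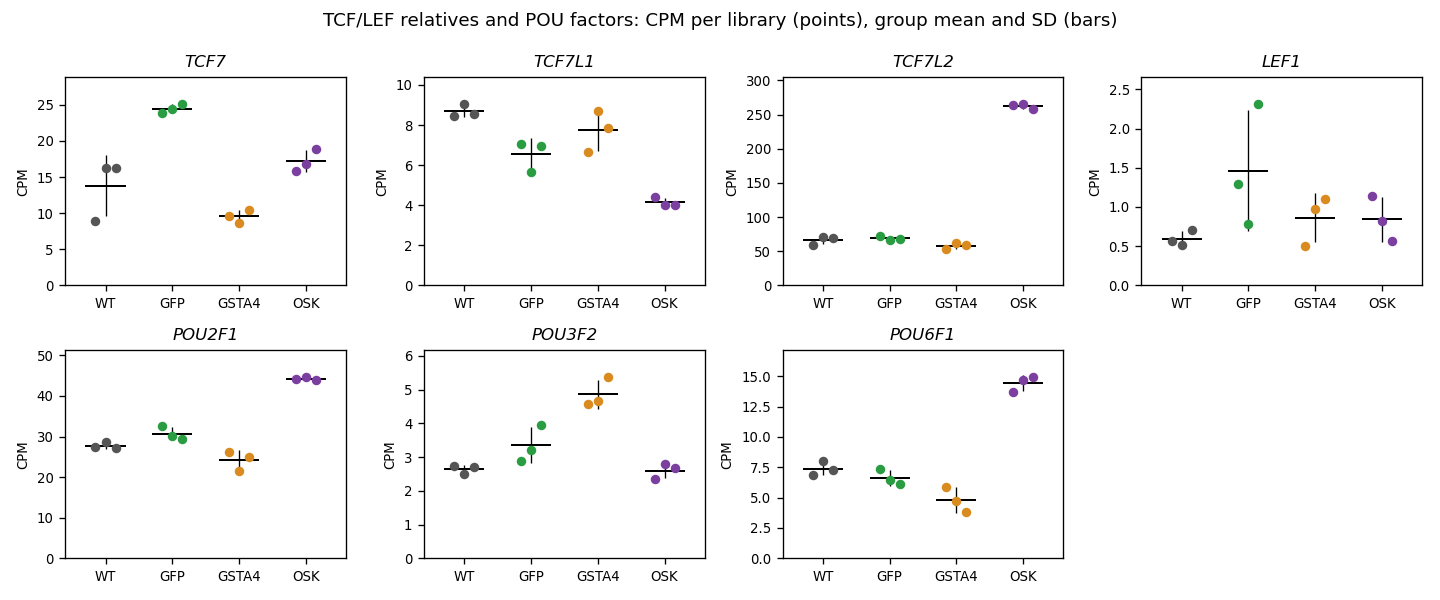
CPM (y axis, linear from 0, its own range per panel) of 4 TCF/LEF genes and the 3 tested POU genes, by group; each point is a library, horizontal bars are means and vertical bars the SD of 3 libraries. TCF7L2 stands at 262 CPM in OSK and at 69.2 in GFP, and POU6F1 at 14.4 and 6.65.

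Protein-coding genes whose levels followed a member most closely over the 12 libraries were named by Pearson's r of log2 CPM among 12267 candidates, as a description. The libraries share their 4 groups, so a gene that follows the group means ranks high. SOX8 was closest to INPP4B (r = 0.991), NAV2 (0.984) and GEM (0.983). SOX4 was closest to FSTL3 (0.987), a secreted activin antagonist, ZNF853 (0.985) and FLRT3 (0.984). SOX5 was closest to TMOD3 and HGSNAT (0.988 each) and JOSD1 (0.983), which were highest in OSK too. SOX12 was closest to PKD2 (0.993), SMARCA1 (0.984) and NR2F2 (0.983), which like it were highest in GSTA4 and lowest in OSK. For SOX9 the closest were NR1H3 (0.921), UBA7 (0.919) and CCND1 (0.898), and for SOX15 KCTD9 (0.947), TAOK3 (0.903) and NR3C1 (0.9). SOX6 had TRDMT1 (0.957), KIF17 (0.872) and C18orf21 (0.87). The weakest matches were those of SOX13, NECAP2 and RNF216 (0.801 each) and TMEM222 (0.786).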

How the data were processed

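The authors deposited a table of raw read counts per gene for 12 libraries of ARPE-19 cells, with 1 column per library, and the library names in the labels matched the columns. STAR 2.7.1a and featureCounts 1.6.2 are named in the submitters' processing notes, whose settings, annotation and strand option are not given in the sources used here. Lines without a symbol (0.485% to 0.822% of reads) were left out. The low-count filter filterByExpr kept 15179 genes, which were scaled by TMM and tested by edgeR's quasi-likelihood method (edgeR 4.0.16, R 4.3.3). The model estimated 4 group levels from the 12 libraries together, leaving 8 residual degrees of freedom. Tests were two-sided, and p-values were adjusted over all tested genes of a contrast (Benjamini-Hochberg, threshold 0.05). The SE is the size of the log2 value divided by the square root of F. CPM are TMM-scaled. In simulated OSK against GFP counts over 15179 genes, 200 genes were changed, where the data had 6962 called. The fit recovered 48.5%, 62.7% and 91.0% of genes changed by 0.5, 1 and 2 on the log2 scale, with 4 false calls. With so few genes changed the adjustment of p is stricter than in the data, so these shares do not carry over to the fit reported.

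The members and gene lists were chosen with earlier results of these data known. The text names all 9 members, up to 3 genes per list with the lowest F test p, and the 3 genes most like each member. RPE65, RGR, TTR, DCT, TYRP1, OTX2, PAX6, NANOG, FOXD3, LUM, DCN, COL2A1 and ACAN are outside that rule and were named from their lists after their values were seen. The alternatives tried were DESeq2 1.42.0, scaling by RLE or by library size, dropping the low-count filter or asking for an average of 1 CPM, blocking on replicate number, fitting just the libraries of a contrast, and leaving out each library. Read counts per replicate differed by more than sampling noise in all 12 pairs of libraries within groups.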

Additional observations from a re-analysis of the deposited data

How the results depend on the processing

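Over the 8 tested members and 6 contrasts, 869 of 912 values under the alternatives kept their direction and their side of the threshold, 14 lost the call, 9 gained it and 20 changed sign. Those that changed sign were not past the threshold in the fit reported or under the alternative. SOX13 in OSK against WT was 0.0027 with RLE scaling and 0.0030 with DESeq2, and ran from -0.042 to 0.058 with a library left out. SOX9 in OSK against GSTA4 was -0.060 with library size alone and ran from -0.042 to 0.086 with a library left out. With a library left out, SOX6 in GSTA4 against GFP ran from -0.11 to 0.26, SOX15 in GFP against WT from -0.27 to 0.31 and in GSTA4 against WT from -0.56 to 0.026, SOX5 in GFP against WT from -0.21 to 0.20, and SOX13 from -0.024 to 0.23 in GSTA4 against WT and from -0.24 to 0.021 in OSK against GSTA4. The number of members called in GFP against WT was 1 rather than 2 with DESeq2 and with only the libraries compared, and ran from 1 to 2 with a library left out. Numbers with a library left out ran from 4 to 6 in OSK against GFP, from 3 to 5 in GSTA4 against GFP and GSTA4 against WT, from 5 to 6 in OSK against WT and from 5 to 7 in the F test, and stayed at 5 in OSK against GSTA4. Library size alone moved the higher share of all calls in OSK against GFP from 50.4% to 39.8%, against GSTA4 from 50.3% to 42.5%, and against WT from 50.1% to 41.1%, without changing the direction of a called member. Alternatives for the gene lists (RLE scaling, library size alone, and leaving out GFP replicate 1 or WT replicate 1) were chosen after seeing the data. They moved 3 counts by over 1.5 times: cartilage genes higher in GFP against WT from 1 to 0 without WT replicate 1, genes linked to SOX4 or SOX11 higher there from 1 to 0 without GFP replicate 1, and POU genes lower in GSTA4 against GFP from 2 to 1 with library size alone.

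The replicate numbers were not taken to pair the libraries. Deviations from the group means correlated at -0.0193 to 0.153 over 18 same-numbered pairs, and the 3 over 0.1 were those of WT replicate 1 with replicate 1 of each other group. Of the 12 libraries, 6 matched best with their own number. With the replicate block, 6 members rather than 4 were past the threshold in GSTA4 against GFP, with SOX5 at -0.52 (edgeR adjusted p 0.047) and SOX13 at 0.29 (adjusted p 0.0497) added. In GSTA4 against WT it was 5 rather than 4, with SOX5 at -0.52 (adjusted p 0.034). The block changed no other call of a member. Depth limits SOX11, with 8 reads at most, and SOX15, with 45 at most.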
